A study of Mus musculus with 16 samples.

Results

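The genes described here are 40 interferon response and antigen presentation genes, taken by symbol from a list of names, and all 40 were found in both deposited tables among the 24063 genes that each table holds. They comprise 3 sensors of viral RNA, 6 signalling and transcription factors, 10 RNA-binding and RNA-editing effectors, 11 other antiviral or interferon-induced genes, 2 genes of the ISG15 system and 8 genes of antigen processing and MHC class I. The list was drawn up with earlier results of these data known, so no p-value was computed for the list as a whole.

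The study asked how Pax7, the transcription factor that specifies pituitary melanotropes, changes gene expression in AtT-20 cells, a mouse line from a pituitary corticotrope tumour. Ribosome-depleted total RNA was sequenced as 50-base paired reads in 16 libraries of 6 groups. The Neo and Pax7 groups (2 libraries each, not treated) came from AtT-20 cells expressing 3x flag-Neo, the control, or 3x flag-Pax7. The ER-Pax7 groups (3 libraries each) came from cells expressing 3x flag-ER-Pax7, a fusion of the kind that is switched on by 4-hydroxy-tamoxifen, collected with no induction (0 h) or after 12, 24 or 96 h of 4-hydroxy-tamoxifen. All cells were AtT-20 at passages 10 to 20, and each construct is represented by 1 cell population. Time in 4-hydroxy-tamoxifen and time of Pax7 activity cannot be told apart in these samples, because every treated library carries the fusion. The labels do not say that replicates were separate cultures, so the p-values measure the spread between these libraries, which may be technical.

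The ER-Pax7 libraries held 61.4 to 88.7 M reads assigned to exons, and the Neo and Pax7 table gives no counts, so its depth is unknown. The library 12 h replicate 2 stood apart from its group: its recovered reads differed from those of the other 12 h libraries by a chi-square per degree of freedom of 44.6 and 50.4, against 5.82 to 14.2 for the other replicate pairs of the ER-Pax7 table, and Rn45s, the ribosomal RNA precursor, took 2.345% of its reads, against 0.7534 to 1.2635% in the other ER-Pax7 libraries. Values of the ER-Pax7 table are given as scaled reads (exon reads brought by the authors to the same total in every library, then divided by a normalization factor), and those of the other table as FPKM over whole gene bodies, introns included, divided likewise. The 2 tables differ in what was counted, and levels were not compared between them. A member was called where the Benjamini-Hochberg adjusted p of limma's test, over all genes tested in that table, was under 0.05. The low-value filter left 38 of 40 members for testing in the ER-Pax7 table (all but Ifi44 and Ifit3) and 32 of 40 in the Neo and Pax7 table (all but Cxcl10, Ifi44, Ifit1, Ifit2, Ifit3, Mx1, Mx2 and Oasl1). Corticotrope markers were abundant in every group, with Pomc at 93150 ± 2758 scaled reads (SD, n = 3) at 0 h. Pomc averaged 82590 ± 2545 at 12 h, 74490 ± 1386 at 24 h and 91170 ± 3621 at 96 h, so its mean, like that of some members below, was lowest at 24 h. The 8 immune cell markers found in the tables summed to 7.5 to 12.22 deposited scaled reads in an ER-Pax7 library, mostly Cd68, and Cd3e, Ncr1 and Siglech were at 0 in all 12 of those libraries. In FPKM the same markers summed to 0.18 to 0.19 in the Neo and 0.33 to 0.45 in the Pax7 libraries, with Ptprc (CD45) at 0 in all 4, and their part in the results was not tested. In these bulk samples, fewer cells expressing a gene and less RNA per cell cannot be told apart.

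Interferons are secreted proteins that infected cells release and that act through receptors and the Jak kinases on transcription factors that include Stat2 and Irf9. These bind a DNA element, the interferon-stimulated response element (ISRE), near the start of genes whose products detect viral RNA, block virus growth and load peptides on MHC class I. Many of these genes are also transcribed at a low level without infection. MHC class I molecules present peptides cut by the proteasome, carried into the endoplasmic reticulum by the transporter Tap1-Tap2 and loaded with the help of tapasin (Tapbp), and each class I chain pairs with B2m.

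Promoter sequence is shown here because the members were grouped by their response to interferon and because their changes over the induction differed. RefSeq promoter windows (GRCm38.p6, 250 bases before to 50 after a start site) were matched for 32 of the 40 members. Dhx58, Ifi27, Mx1, Mx2, Oas2, Parp14, Tap2 and Usp18 were not matched. The ISRE core was searched as GAAANNGAAA on both strands and was found for 14 of the 32 members (43.75%), against 3.993% of all 27025 genes with a window. The gamma-activated site (GAS), an element of genes that answer interferon-gamma, was searched as TTCNNNGAA, which reads the same on both strands, and was found for 9 of 32 members (28.125%), against 9.554% of all genes. These 9 included Irf1, Bst2 and Psmb8, which rose between 24 and 96 h, and Oas1a, which fell by 24 h. Irf2 was higher at 96 h against 0 h, and Ifit2, Adar, Eif2ak2 and Ifi35 were not called over the induction. Matches of the 2 motifs shared bases in 1 member window, that of Bst2, for which only the ISRE core is marked below. Among the members that rose between 24 and 96 h and had a window, 2 of 8 held an ISRE core (B2m and Bst2), and among those that fell by 24 h, 2 of 5 did (Oas1a and Stat2). For Bst2 and Stat2 the RefSeq window belongs to another start site than that of the transcript counted, and their stretches lie before both start sites. The stretches below lie before the start site of the window, are written on the strand of the gene, and carry the ISRE core in capitals (on either strand), or the GAS for Irf1 and Psmb8. They sit at chr2:122147503-122147602 (+) for B2m, chr8:71537548-71537647 (-) for Bst2, chr5:120907526-120907590 (-) for Oas1a, chr10:128270248-128270330 (+) for Stat2, chr4:156200842-156200941 (-) for Isg15, chr19:34640740-34640839 (+) for Ifit1, chr11:53769879-53769977 (+) for Irf1 and chr17:34198053-34198151 (+) for Psmb8.
B2m: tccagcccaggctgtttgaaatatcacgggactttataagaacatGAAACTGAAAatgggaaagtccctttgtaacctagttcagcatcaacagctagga
Bst2: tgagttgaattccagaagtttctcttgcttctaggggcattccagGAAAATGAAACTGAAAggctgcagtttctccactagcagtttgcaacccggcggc
Oas1a: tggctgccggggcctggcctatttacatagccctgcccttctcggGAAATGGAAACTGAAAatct
Stat2: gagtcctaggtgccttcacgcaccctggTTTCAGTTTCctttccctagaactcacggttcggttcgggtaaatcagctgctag
Isg15: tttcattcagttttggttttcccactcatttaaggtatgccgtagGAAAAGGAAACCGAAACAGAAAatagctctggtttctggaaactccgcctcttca
Ifit1: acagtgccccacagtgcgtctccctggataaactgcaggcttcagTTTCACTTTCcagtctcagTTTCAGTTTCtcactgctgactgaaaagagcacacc
Irf1: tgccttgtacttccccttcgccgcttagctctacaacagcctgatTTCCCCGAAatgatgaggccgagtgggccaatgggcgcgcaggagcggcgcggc
Psmb8: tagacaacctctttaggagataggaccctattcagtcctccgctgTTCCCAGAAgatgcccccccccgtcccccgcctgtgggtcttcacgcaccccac
Isg15 and Ifit1 are included because they carry repeated ISRE cores and were not called in any comparison in which they were tested. Psmb9 and Tap1 are transcribed away from each other from start sites with 225 bases between them, at chr17:34187331-34187555 (written on the + strand), and that interval is shown because both genes fell in Pax7 cells. It held no ISRE core and no GAS by these letters.
Psmb9-Tap1 interval: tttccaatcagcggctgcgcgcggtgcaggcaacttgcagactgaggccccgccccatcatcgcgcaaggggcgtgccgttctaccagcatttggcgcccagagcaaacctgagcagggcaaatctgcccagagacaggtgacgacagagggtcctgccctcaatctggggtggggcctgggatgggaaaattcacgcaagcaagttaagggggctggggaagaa

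The members spanned a wide range of levels in uninduced ER-Pax7 cells. Compared per kilobase of exon, 10 members were above 100 scaled reads per kb at 0 h, 17 lay between 10 and 100, 8 between 1 and 10 and 5 under 1. The MHC class I heavy chains led, H2-K1 at 1651 and H2-D1 at 1393 scaled reads per kb, followed by Ifi27 (733), B2m (407) and the immunoproteasome subunit Psmb8 (188). At the low end, Mx1 was at 4.95, Cxcl10 at 0.963, Ifit1 at 0.816 and Ifit2 at 0.241 scaled reads per kb, and Ifit3 had 0 reads in all 12 libraries. Irf7, the factor that amplifies interferon production, was at 76.6 and Isg15, a ubiquitin-like modifier, at 51.5 scaled reads per kb. Reads of H2-K1 and H2-D1 may be split between near-identical class I genes, and H2-D1 shares its locus and strand with a separate entry, H2-L. Ifi27 overlaps Ifi27l2a, and B2m overlaps Patl2, on the opposite strand; no strand setting is given in the sources used here, so reads of the partners cannot be told apart.

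Over the induction the members did not move as 1 block. By 12 h, 0 of 38 rose and 1 fell, against 2.79% of all genes called higher and 3.71% called lower. By 24 h, 1 rose (Irf1) and 7 fell (Irf7, H2-D1, H2-K1, Oas1a, Oas2, Dhx58 and Stat2), 18.4% of the members tested, against 5.47% of all genes called higher and 8.07% called lower. Between 24 and 96 h, 13 rose (34.2%) and 0 fell, against 6.16% and 6.54% of all genes. At 96 h against 0 h, 13 were higher and 5 lower, against 16.3% and 17.4% of all genes. Between 12 and 24 h limma and edgeR's quasi-likelihood test each called 0 members. Of all genes, limma called 0.0724% higher and 0.0988% lower there. At an unadjusted p under 0.05 by limma were 3 of 38 members (Dhx58, Oas2 and H2-D1). So were 1329 of all 15188 genes, and the number of members was near the background. A test over all 4 times called 20 of 38 members (52.6%), against 30.3% of all genes. The median log2 change of the members tested was -0.04 at 12 h and -0.07 at 24 h against 0 h, 0.11 at 96 h against 0 h and 0.20 at 96 h against 24 h, where the medians of all genes were -0.0016, 0.0014, 2e-04 and 6e-04. These comparisons share the 0 h or 24 h libraries and are not independent of each other. Of the 24 h calls, the number moved most with 1 library: without 24 h replicate 1, 3 members were called (1 higher and 2 lower) in place of 8. With library totals in place of the normalization factors the split at 24 h was 2 higher and 6 lower. Without 12 h replicate 2 the numbers of members called were 1 at 12 h, 8 at 24 h and 18 at 96 h against 0 h, 0 at 24 h against 12 h and 13 at 96 h against 24 h, the numbers found with it.

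**Figure D1:**
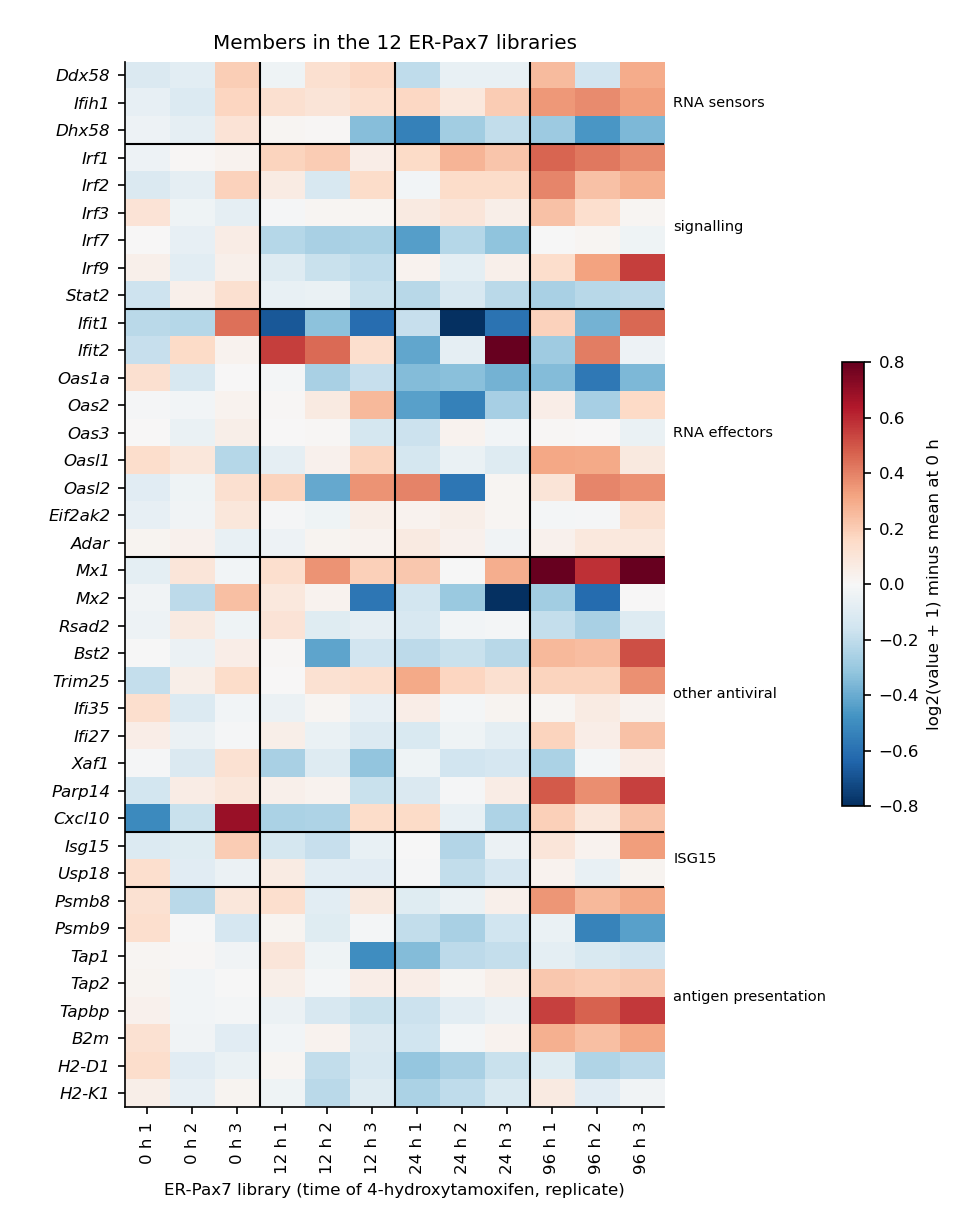
Each row is 1 of the 38 members tested and each column 1 ER-Pax7 library, with colour for log2(scaled reads + 1) minus the mean of the 3 libraries at 0 h; the colour scale ends at 0.8 in either direction, and black lines part the role groups and the times. Blue cells at 24 h mark Dhx58, Irf7, Oas1a, Oas2 and H2-D1, red cells at 96 h mark Irf1, Mx1, Parp14 and Tapbp, and Ifit1, Ifit2, Mx2 and Cxcl10, which have low values, scatter within groups.

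**Figure D2:**
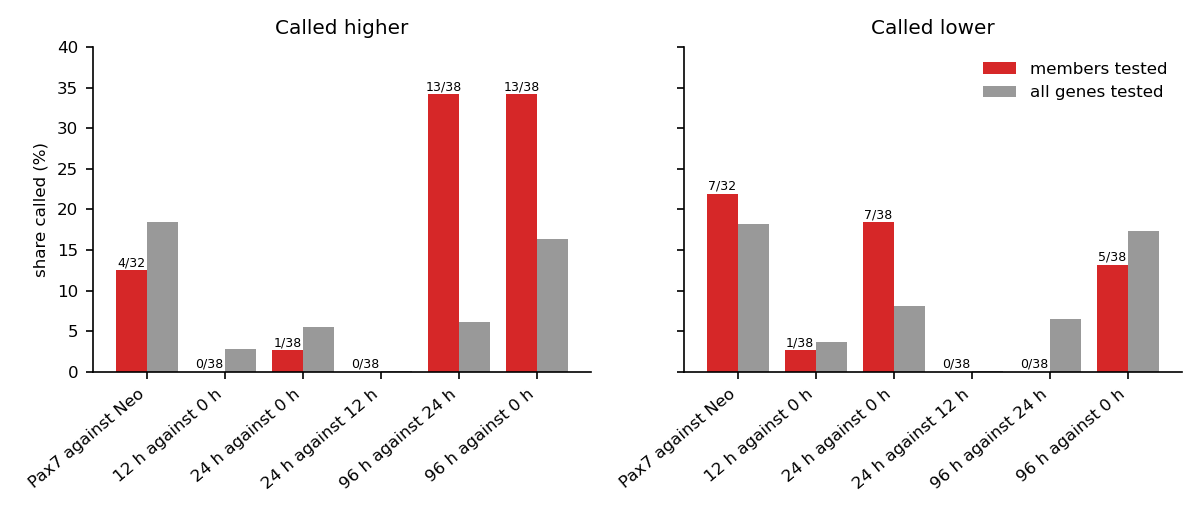
Bars give the share (%) of the members tested (red) and of all genes tested (grey) called higher (left) or lower (right) in each comparison, with the number of members called above each red bar. The members' share is above that of all genes among genes lower at 24 h against 0 h (7 of 38) and among genes higher at 96 h against 24 h and against 0 h (13 of 38 each).

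The interferon regulatory factors and their partners moved in different directions. Irf7 (chr7:141263183-141266424) held 143, 136 and 148 scaled reads in the 3 libraries at 0 h, 121, 118 and 119 at 12 h, 104, 121 and 114 at 24 h, and 142, 144 and 139 at 96 h. All libraries at 12 and 24 h lay below all those at 0 and 96 h, and the 0 h and 96 h libraries overlapped. Irf7 fell by 12 h (log2 fold -0.25, SE 0.060, adjusted p = 0.0121) and by 24 h (log2 fold -0.33, SE 0.060, adjusted p = 0.000513), and rose again between 24 and 96 h (log2 fold 0.33, SE 0.060, adjusted p = 0.000922). At 96 h against 0 h its log2 fold was -0.01 (adjusted p = 0.951). The 12 h call for Irf7 was lost without 0 h replicate 3 (log2 fold -0.22, adjusted p = 0.0622), while its 24 h and 96 h calls held under every alternative run.

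Irf1, an interferon-gamma-induced activator of class I and antiviral genes, did not share that course. It held 298, 309 and 312 scaled reads at 0 h, 346, 353 and 318 at 12 h, 340, 370 and 357 at 24 h, and 423, 411 and 398 at 96 h. Every 24 h library was above every 0 h library and below every 96 h library. Irf1 rose by 24 h (log2 fold 0.22, SE 0.047, adjusted p = 0.00296) and again from 24 to 96 h (log2 fold 0.21, SE 0.047, adjusted p = 0.00508), calls that held under every alternative run.

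Stat2 and Irf9, which act together at the ISRE, moved apart. Stat2 held 332, 384 and 407 scaled reads at 0 h, 358, 359 and 331 at 12 h, 320, 342 and 321 at 24 h, and 312, 320 and 323 at 96 h. It fell by 24 h (log2 fold -0.19, SE 0.058, adjusted p = 0.0343) and was lower at 96 h against 0 h (log2 fold -0.23, adjusted p = 0.00408), with a log2 fold of -0.04 between 24 and 96 h (adjusted p = 0.702). The 24 h and 0 h libraries of Stat2 overlapped, and the 24 h call was lost without 0 h replicate 2 (adjusted p = 0.128) or 3 (0.186), without 24 h replicate 1 (0.127) or 3 (0.102), and without 96 h replicate 2 (0.0528). It was also lost with library totals as the scaling (0.0595), with no filter on low values (0.097) and with only the compared groups in the fit (0.0522). Irf9 held 56.4, 51.8 and 56.6 scaled reads at 0 h, 51.1, 48.4 and 47.5 at 12 h, 56.0, 51.9 and 56.3 at 24 h, and 60.5, 68.8 and 80.9 at 96 h. It rose between 24 and 96 h (log2 fold 0.34, SE 0.091, adjusted p = 0.0155), with 96 h replicate 3 highest. The call for Irf9 was lost without that library (log2 fold 0.23, adjusted p = 0.12) and without 24 h replicate 2 (log2 fold 0.30, adjusted p = 0.0709). Of the other 2 factors, Irf2 was higher at 96 h against 0 h (log2 fold 0.30, adjusted p = 0.0117), and Irf3, which relays the RNA sensors' signal, was not called over the induction. The call for Irf2 was lost without 0 h replicate 1 (adjusted p = 0.0624), 0 h replicate 2 (0.0525) or 96 h replicate 1 (0.057).

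Among the cytosolic sensors of viral RNA, Dhx58 (LGP2), a regulator of the other sensors, fell. It held 74.0, 72.4 and 82.4 scaled reads at 0 h, 76.9, 76.5 and 60.01 at 12 h, 52.1, 62.5 and 66.4 at 24 h, and 62.1, 54.9 and 59.2 at 96 h. The 24 h and 96 h libraries all lay below the 0 h libraries, and 12 h replicate 3 lay with them. Dhx58 was lower at 24 h (log2 fold -0.34, SE 0.10, adjusted p = 0.0275) and at 96 h (log2 fold -0.37, SE 0.10, adjusted p = 0.00669) against 0 h, and its log2 fold from 24 to 96 h was -0.03 (adjusted p = 0.874). The 24 h call for Dhx58 was lost without 0 h replicate 3 (log2 fold -0.28, adjusted p = 0.115) or 24 h replicate 1 (log2 fold -0.24, adjusted p = 0.178) and with no filter (log2 fold -0.33, adjusted p = 0.0839), and the 96 h call held under every alternative run. Ifih1 (MDA5), which binds long double-stranded RNA, was higher at 96 h against 0 h (log2 fold 0.35, adjusted p = 0.000658), from 79.3 ± 8.65 to 101 ± 1.80 scaled reads (SD, n = 3 each). Ddx58 (RIG-I) was not called at any time.

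Of the 9 RNA-binding and RNA-editing effectors tested, 2 were called over the induction (Oas1a and Oas2). The test over all 4 times called the same 2, against 30.3% of all genes, so the number was near the background. Both are oligoadenylate synthetases, enzymes that make a signalling nucleotide when they meet double-stranded RNA. Oas2 held 25.3, 25.0 and 26.0 scaled reads at 0 h, 25.6, 26.8 and 30.7 at 12 h, 18.6, 17.2 and 21.1 at 24 h, and 26.4, 21.0 and 28.6 at 96 h. All 24 h libraries lay below all 0 h and 12 h libraries, and 96 h replicate 2 lay among the 24 h libraries. Oas2 fell by 24 h (log2 fold -0.41, SE 0.12, adjusted p = 0.0226) and rose by 96 h (log2 fold 0.40, SE 0.12, adjusted p = 0.0304). Neither call for Oas2 held under every alternative run. The 24 h call was lost without 0 h replicate 1 (log2 fold -0.42, adjusted p = 0.0543), 2 (-0.43, 0.0503) or 3 (-0.40, 0.0648), without 24 h replicate 1 (-0.40, 0.0684) or 2 (-0.35, 0.0985), and with no filter (-0.41, 0.0643). The rise to 96 h was lost without 24 h replicate 1 (log2 fold 0.39, adjusted p = 0.0685) or 2 (0.33, 0.129), without 96 h replicate 1 (0.36, 0.105) or 3 (0.31, 0.159), and with no filter (0.40, 0.0794).

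Oas1a held 46.2, 38.5 and 42.3 scaled reads at 0 h, 41.7, 35.1 and 37.1 at 12 h, 33.0, 33.3 and 32.3 at 24 h, and 33.0, 28.0 and 32.7 at 96 h. All libraries at 24 and 96 h lay below those at 0 h. Oas1a fell by 24 h (log2 fold -0.35, SE 0.098, adjusted p = 0.0189) and was lower at 96 h against 0 h (log2 fold -0.42, SE 0.098, adjusted p = 0.00202), with a log2 fold of -0.07 from 24 to 96 h (adjusted p = 0.695). The 24 h call for Oas1a was lost without 0 h replicate 1 (adjusted p = 0.0983) or 24 h replicate 1 (0.0501) or 3 (0.053). The more abundant Adar, which edits double-stranded RNA, Eif2ak2, the kinase that stops translation on such RNA, and Oas3 were not called: their means over the 4 times ranged from 725 to 759, from 246 to 252 and from 222 to 231 scaled reads. Ifit1, which binds viral RNA ends, Ifit2, Ifit3, Ifi44 and Cxcl10 had at most 39 reads in any ER-Pax7 library. No direction is read from these genes.

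Of the 10 other antiviral genes tested, 4 rose between 24 and 96 h, against 6.16% of all genes. None of the 10 was called at 12 or 24 h against 0 h. Limma called 986 and 2056 of all 15188 genes there, so these zeros are not read as a result about the members. Mx1, a GTPase that traps viral nucleocapsids, held 13.0, 14.9 and 13.6 scaled reads at 0 h, 15.2, 18.0 and 15.9 at 12 h, 16.2, 13.8 and 17.1 at 24 h, and 25.0, 21.2 and 28.2 at 96 h. Every 96 h library of Mx1 was above every library of the earlier times. Mx1 was higher at 96 h against 24 h (log2 fold 0.63, SE 0.13, adjusted p = 0.00208) and against 0 h (log2 fold 0.79, SE 0.13, adjusted p = 5.33e-05). The 24 h log2 fold of Mx1 against 0 h was 0.17 (adjusted p = 0.446), so a fall of this gene by 24 h was not called.

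Parp14, an ADP-ribosyltransferase, had 40.7, 47.1 and 48.2 scaled reads at 0 h, 46.6, 46.1 and 39.9 at 12 h, 41.7, 44.95 and 47.2 at 24 h, and 64.1, 58.7 and 66.5 at 96 h. The groups of the first 3 times overlapped, and Parp14 rose between 24 and 96 h (log2 fold 0.49, SE 0.091, adjusted p = 0.000987). Bst2 (tetherin), which holds budding virus at the cell surface, had 50.3, 48.9 and 52.5 scaled reads at 0 h, 50.9, 37.5 and 45.3 at 12 h, 43.5, 44.5 and 43.1 at 24 h, and 60.7, 60.1 and 72.6 at 96 h. It rose between 24 and 96 h (log2 fold 0.54, SE 0.099, adjusted p = 0.000886). All 24 h libraries of Bst2 were below all 0 h libraries, a step that was not called (log2 fold -0.20, adjusted p = 0.203). Bst2 was also higher at 96 h against 0 h (log2 fold 0.34, adjusted p = 0.0115), a call lost without 96 h replicate 3 (log2 fold 0.26, adjusted p = 0.0813).

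Ifi27, an interferon-induced membrane protein, had 799, 746 and 764 scaled reads at 0 h, 795, 740 and 713 at 12 h, 707, 751 and 730 at 24 h, and 871, 796 and 906 at 96 h. It rose from 24 to 96 h (log2 fold 0.23, SE 0.048, adjusted p = 0.00232), with no overlap of those groups. At 96 h against 0 h Ifi27 was also higher (log2 fold 0.16, adjusted p = 0.0155), but the groups overlapped and the call was lost without 0 h replicate 2 (adjusted p = 0.0733) or 96 h replicate 1 (0.0528) or 3 (0.0934). Trim25, a ubiquitin ligase that activates Ddx58, was higher at 96 h against 0 h (log2 fold 0.24, adjusted p = 0.00952). That call was lost without 0 h replicate 1 (adjusted p = 0.0779) or 96 h replicate 3 (0.0677). Ifi35 and Rsad2 (viperin) were not called. In the ISG15 system, neither Isg15 nor Usp18, the protease that removes it, was called over the induction.

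**Figure D3:**
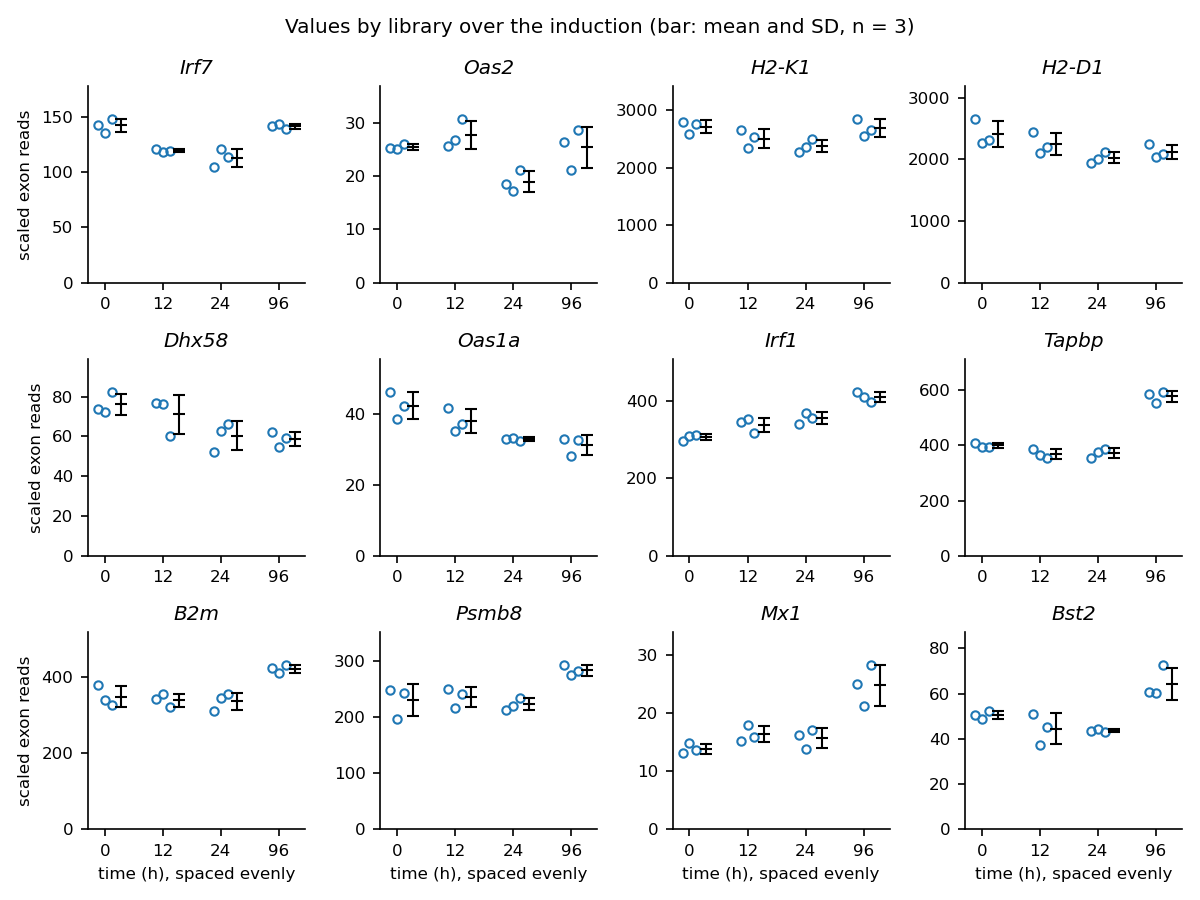
Each panel shows 1 member; circles are the 3 libraries at each time of 4-hydroxy-tamoxifen (h, spaced evenly), the bar beside them is the mean with SD (n = 3), and the y axis, from 0, is scaled reads. Irf7, Oas2 and H2-K1 are lowest at 24 h, Dhx58 and Oas1a stay low at 96 h, and Tapbp, B2m, Psmb8, Mx1 and Bst2 are highest at 96 h.

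Most antigen processing genes rose late. Of the 8 genes, 7 lie in the MHC region at chr17:33919478-35267497. From 24 to 96 h, 5 of the 8 rose (Tapbp, B2m, Psmb8, Tap2 and H2-K1) and 0 fell, against 6.16% and 6.54% of all genes. Tapbp (tapasin), which bridges class I molecules and the peptide transporter, held 410, 395 and 395 scaled reads at 0 h, 388, 366 and 353 at 12 h, 355, 376 and 387 at 24 h, and 586, 554 and 593 at 96 h. Every 96 h library of Tapbp lay above every other library. It rose by a log2 fold of 0.63 from 24 to 96 h (SE 0.045, adjusted p = 1.05e-08) and was higher at 96 h against 0 h (log2 fold 0.53, adjusted p = 1.15e-08).

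B2m, the light chain of class I, held 379, 341 and 326 scaled reads at 0 h, 343, 355 and 321 at 12 h, 311, 345 and 355 at 24 h, and 424, 411 and 432 at 96 h. It rose between 24 and 96 h (log2 fold 0.33, SE 0.057, adjusted p = 0.000561). Psmb8, the immunoproteasome subunit that replaces Psmb5, held 248, 197 and 243 scaled reads at 0 h, 250, 215 and 241 at 12 h, 213, 220 and 234 at 24 h, and 292, 274 and 282 at 96 h. It rose likewise (log2 fold 0.35, SE 0.072, adjusted p = 0.0028). Tap2, a chain of the peptide transporter, held 249, 241 and 244 scaled reads at 0 h, 253, 242 and 254 at 12 h, 254, 248 and 253 at 24 h, and 285, 282 and 284 at 96 h. Tap2 rose from 24 to 96 h by a small but even step (log2 fold 0.17, SE 0.041, adjusted p = 0.00816). For B2m, Psmb8 and Tap2 alike, every 96 h library lay above every library of the earlier times.

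The class I heavy chains fell by 24 h, with every 24 h library below every 0 h library in both genes. H2-K1 held 2798, 2592 and 2751 scaled reads at 0 h, 2653, 2335 and 2529 at 12 h, 2274, 2356 and 2493 at 24 h, and 2849, 2551 and 2657 at 96 h. It fell by 24 h (log2 fold -0.19, SE 0.049, adjusted p = 0.00923), rose from 24 to 96 h (log2 fold 0.18, SE 0.049, adjusted p = 0.0187) and had a log2 fold of -0.02 at 96 h against 0 h (adjusted p = 0.838). Without 24 h replicate 1 the fall of H2-K1 was not called (adjusted p = 0.0645), and its rise was not called without 24 h replicate 1 (0.0802) or 2 (0.0596) or 96 h replicate 1 (0.116), nor with no filter (0.061). H2-D1 held 2661, 2267 and 2320 scaled reads at 0 h, 2440, 2101 and 2207 at 12 h, 1947, 2012 and 2126 at 24 h, and 2250, 2040 and 2085 at 96 h. Its fall by 24 h (log2 fold -0.25, SE 0.058, adjusted p = 0.00471) held under every alternative run, its log2 fold from 24 to 96 h was 0.07 (adjusted p = 0.507), and it was lower at 96 h against 0 h (log2 fold -0.18, adjusted p = 0.018). That last call for H2-D1 was lost without 0 h replicate 1 (adjusted p = 0.131) or 96 h replicate 2 (0.0921) or 3 (0.0655), and with no filter (0.058). A difference in course between H2-K1 and H2-D1 was not tested. Psmb9, the subunit that replaces Psmb6, was lower at 96 h against 0 h (log2 fold -0.34, adjusted p = 0.0289), at 29.9 ± 2.85 against 23.6 ± 4.50 scaled reads (SD, n = 3 each), with overlapping groups. The call for Psmb9 was lost without 0 h replicate 1 (adjusted p = 0.12) or 2 (0.0643) or 96 h replicate 2 (0.164) or 3 (0.112), and with no filter (0.0681). Tap1, the other transporter chain, was not called over the induction.

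In cells with constitutive Pax7, 4 of the 32 members tested were higher than in Neo cells (Irf1, Tapbp, H2-K1 and Irf3) and 7 lower (Irf7, Dhx58, Psmb9, Usp18, Tap1, Psmb8 and Tap2). These shares, 12.5% and 21.9%, stand beside 18.5% of all genes called higher and 18.2% called lower, so the number of members called was near the background. The median log2 fold of the members was 0.02, and that of all genes 0.0070. Dhx58 had the lowest log2 fold among the members: 1.36 and 1.39 FPKM in the Neo libraries against 0.785 and 0.845 in the Pax7 libraries (log2 fold -0.69, SE 0.050, adjusted p = 0.00432). Psmb9 held 0.927 and 0.918 FPKM in Neo and 0.507 and 0.567 in Pax7 cells (log2 fold -0.68, SE 0.062, adjusted p = 0.00589). Usp18 held 0.373 and 0.386 FPKM in Neo and 0.220 and 0.209 in Pax7 cells (log2 fold -0.61, SE 0.057, adjusted p = 0.00617). Irf7 held 6.58 and 6.70 FPKM in Neo and 4.62 and 4.46 in Pax7 cells (log2 fold -0.54, SE 0.033, adjusted p = 0.00336). In none of these 4 genes did the groups overlap. With 2 libraries a group, that also held for members not called, such as Ddx58 (adjusted p = 0.225) and Isg15 (0.189), and the share of all genes without overlap was not counted. The calls of these 4 genes and of Tap1 held under every alternative run in which they were tested. Psmb9 and Usp18 were under the alternative filter of 1 FPKM and were not tested in that run. Mx1, at 0.0605 and 0.0834 FPKM in Neo and 0.0765 and 0.0895 in Pax7 cells, was under the filter. The other 6 calls were lost without at least 1 library: 5 members were called without Pax7 replicate 1 and 6 without Pax7 replicate 2. That of Irf3 was also lost with library totals (adjusted p = 0.0538), and those of Irf3 and H2-K1 with the replicate block (0.0622 each). Of the 14 constitutive core subunits of the proteasome, 4 were called lower in Pax7 cells (Psmb1, Psma4, Psmb6 and Psma6) and 0 higher, and the log2 folds of the 14 ran from -0.26 to -0.0048. Fold changes are of log2(FPKM + 0.1), which understates the change of low genes.

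The 2 systems were set side by side for the same members. Irf1 and Tapbp were higher and Dhx58 and Psmb9 lower both at 96 h against 0 h and in Pax7 against Neo cells. The Pax7 call of Irf1 was lost without Pax7 replicate 1 (log2 fold 0.24) or 2 (0.21). That of Tapbp was lost without Neo replicate 2 (log2 fold 0.19), Pax7 replicate 1 (0.22) or Pax7 replicate 2 (0.22). The 96 h call of Psmb9 was lost in the runs given above. Both calls of Dhx58 held under every alternative run. Irf7 was lower in Pax7 cells and had a log2 fold of -0.01 at 96 h against 0 h. Psmb8 and Tap2 were higher at 96 h against 0 h (log2 fold 0.31 and 0.21) and lower in Pax7 cells (log2 fold -0.29 and -0.23). The Pax7 call of Psmb8 was lost without Pax7 replicate 1 (adjusted p = 0.0743) or 2 (0.0609), and that of Tap2 without Neo replicate 2 (0.0775), Pax7 replicate 1 (0.107) or Pax7 replicate 2 (0.0706). The difference between the systems was not tested, since the tables count different parts of the genes.

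**Figure D4:**
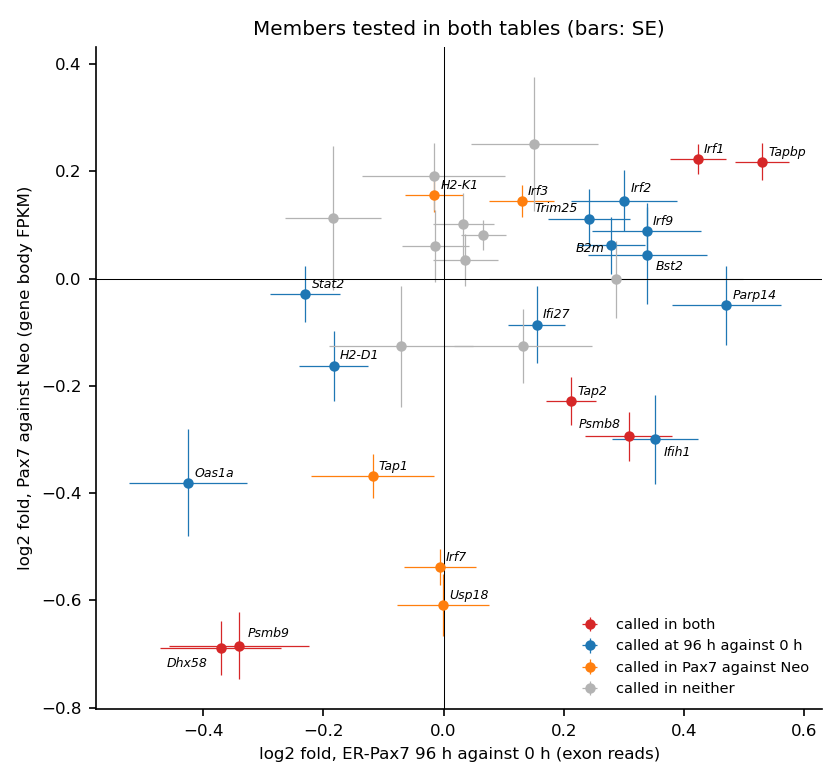
Each point is 1 of the members tested in both tables, with its log2 fold at 96 h against 0 h on the x axis and its log2 fold in Pax7 against Neo cells on the y axis; bars are SE and colour gives where it was called. Dhx58 and Psmb9 lie at lower left, Irf1 and Tapbp at upper right, and Tap2 and Psmb8 are at lower right.

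The ligands and the signalling chain above the members were read from a list of 24 genes. Transcripts of the interferon genes were near or at 0 in the ER-Pax7 libraries: Ifna1, Ifna2, Ifna4 and Ifne had 0 reads in all 12, Ifnb1 had 4 reads in 1 library, and Ifng had 6 reads over all 12. Of the 16 genes of the list tested, 1 rose and 5 fell by 24 h, against 5.47% of all genes called higher and 8.07% lower. By 96 h against 0 h, 3 rose and 8 fell, against 16.3% and 17.4% of all genes, so the number higher was near the background. Ifnar2, a chain of the type I interferon receptor, was lower at 96 h against 0 h (log2 fold -0.22, adjusted p = 0.0013) and in Pax7 cells (log2 fold -0.26, adjusted p = 0.0252), and the other chain, Ifnar1, was not called in any comparison. Stat3, which answers interleukin-6-type cytokines, rose by 24 h (log2 fold 0.29, adjusted p = 5.37e-05) and 96 h (log2 fold 0.48, adjusted p = 1.64e-08) and was higher in Pax7 cells (log2 fold 0.45, adjusted p = 0.0082). Socs3, an inhibitor of Jak signalling, fell by 24 h (log2 fold -0.35, adjusted p = 0.000305).

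Other antigen presentation genes were read from a list of 21, of which 18 were tested over the induction. By 24 h, 0 rose and 6 fell, against 5.47% and 8.07% of all genes, by the same limma fit that called the members. From 24 to 96 h, 7 rose and 1 fell, against 6.16% and 6.54% of all genes. Calr, a chaperone of the peptide-loading complex, fell by 24 h (log2 fold -0.23, adjusted p = 0.000138). Calr was called higher at 96 h against 24 h and was not called at 96 h against 0 h. H2-T23 (Qa-1), a non-classical class I gene, fell by 24 h (log2 fold -0.30, adjusted p = 0.000152) and was lower at 96 h against 0 h (log2 fold -0.46, adjusted p = 2.71e-07). Erap1, which trims peptides in the endoplasmic reticulum, rose from 24 to 96 h (log2 fold 0.43, adjusted p = 4.76e-06), from 231 ± 6.25 to 312 ± 14.1 scaled reads (SD, n = 3 each). Tapbpl, a tapasin-related peptide editor, rose as well (log2 fold 0.39, adjusted p = 0.000403), and so did Psmb10, an immunoproteasome subunit (log2 fold 0.62, adjusted p = 0.00138). Nlrc5, the class I transactivator, averaged 0.399 to 1.22 scaled reads over the 4 times and was not called. Of the 14 constitutive core subunits of the proteasome, 0 were called at 12 or 24 h against 0 h by limma (0 at an unadjusted p under 0.05) and 1 at 96 h against 0 h (against 17.4% of all genes called lower), Psmb6, which was lower (log2 fold -0.16, adjusted p = 0.0409).

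Further interferon-stimulated genes were read from a list of 44 symbols, of which 41 were in the tables and 28 tested over the induction; Ifit1bl1, Ifit3b and Rnf213 were not analysed here. By 24 h, 1 rose and 2 fell, against 5.47% and 8.07% of all genes, so both numbers were near the background. From 24 to 96 h, 9 rose and 2 fell, against 6.16% and 6.54% of all genes. Lgals3bp, a secreted glycoprotein, rose from 24 to 96 h (log2 fold 0.41, adjusted p = 2.14e-05) and was higher in Pax7 than in Neo cells (log2 fold 0.68, adjusted p = 0.00241). Parp12, an antiviral ADP-ribosyltransferase, rose from 24 to 96 h (log2 fold 0.21, adjusted p = 0.000511), as did Dtx3l, the ubiquitin ligase partner of Parp9 (log2 fold 0.26, adjusted p = 0.00136). Both were also higher in Pax7 cells, Parp12 by a log2 fold of 0.38 (adjusted p = 0.00953) and Dtx3l by 0.36 (adjusted p = 0.00751). Rtp4 fell by 24 h (log2 fold -0.56, SE 0.16, adjusted p = 0.0248), from a mean of 10.98 to one of 7.11 scaled reads (n = 3 each). Rtp4 was called higher at 96 h against 24 h and was not called at 96 h against 0 h.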

How the data were processed

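RNA-seq of 16 AtT-20 libraries in 6 groups was analysed from tables the authors deposited. The submitters' processing notes name TopHat, HOMER and edgeR, without versions, and the builds GRCm38 and mm10. Per the file headers, the deposited signal values of the ER-Pax7 table are exon reads scaled to a common total, condensed to 1 entry per gene, and the deposited FPKM values of the Neo and Pax7 table are over gene bodies. Whole reads were recovered from the ER-Pax7 values (100.0% of values whole within 0.1 read), 61.4 to 88.7 M a library. No column was left unmapped. The authors' deposited p-values and log2 fold changes (edgeR, per the labels) are quoted only by name.

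TMM factors came from edgeR 4.0.16, and the normalized values were tested as log2(value + 1) or log2(FPKM + 0.1) with limma 3.58.1 in R 4.3.3, 1 fit per table, trended empirical Bayes, Benjamini-Hochberg threshold 0.05. Genes needed at least 1 scaled read in 3 libraries (15188 genes) or 0.1 FPKM in 2 (13393 genes). The scripts were tested on simulated data. No replicate pair of the ER-Pax7 table looked like a repeat deposit of the same library (chi-square per degree of freedom of recovered reads above 1 in every pair). The Neo and Pax7 table gives no counts, so its replicate pairs were not checked in this way. Alternatives were other scalings, pseudocounts and filters, a replicate block, the compared groups alone, each library left out, and edgeR's quasi-likelihood test on recovered reads. Members and lists were chosen with earlier results of these data known. Every library's value is given for members called at 24 h against 0 h or 96 h against 24 h, or in Pax7 against Neo cells with an absolute log2 fold of at least 0.5, and for Irf7 and Mx1; from the other lists up to 3 called genes per comparison with the smallest adjusted p, plus Ifnar1, Ifnar2 and Nlrc5. Results of some genes are not reported here.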

Additional observations from a re-analysis of the deposited data

Results flagged for a closer look

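In 3 members the libraries of both systems were fully separated between groups, in opposite directions, and the difference between the systems was not tested. The share of all genes that do so was not counted, so the number is not read as a result about the members. With 2 libraries a group, members not called by limma in Pax7 against Neo cells were also fully separated, such as Ddx58 (adjusted p = 0.225) and Irf9 (0.259). Ifih1 had a log2 fold of 0.3517 at 96 h against 0 h and of -0.2998 in Pax7 against Neo cells, the latter not called (adjusted p = 0.0575). Psmb8 had a log2 fold of 0.3077 at 96 h and of -0.2944 in Pax7 cells, both called. Tap2 had a log2 fold of 0.2117 at 96 h and of -0.2291 in Pax7 cells, both called. The ER-Pax7 values count exons and the Neo and Pax7 values count gene bodies, and the part of that difference in these results was not tested.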

How the results depend on the processing

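No called fold change of a member turned its direction in the alternatives run: of 1075 recomputed fold changes (members called, and Irf7 and Mx1 wherever tested), 1002 kept their side of the threshold and 73 lost the call, 61 of them with 1 library left out. Of the 51 calls of members, 29 held under every alternative run in which the gene was tested. The number of members called in Pax7 against Neo cells (11) was 5 to 9 with 1 library left out, and that of all genes (4917) was 2001 to 2928; with library totals as the scaling the split of all genes in that comparison was 2599 higher and 1237 lower, against 2482 and 2435. At 12 h against 0 h the members called (1) were 0 to 2 with 1 library left out. At 24 h against 0 h the members called (8) were 5 with no filter and 3 to 9 with 1 library left out. All genes called at 24 h against 12 h (26) were 17 with no filter, 16 with only the compared groups in the fit, and 11 to 31 with 1 library left out. All genes called at 96 h against 24 h (1929) were 1268 to 2116 with 1 library left out, the lowest without 96 h replicate 2. Same-numbered libraries had correlated deviations of -0.082 to 0.144 in the ER-Pax7 table (14 of 18 pairs above 0, 1 above 0.1, and 8 of 12 libraries highest with their own number) and of 0.038 in the other; as not every pair was over 0.1, the numbers were not taken as pairing the samples. With the replicate block, members called were 2 at 12 h, 9 at 24 h and 19 at 96 h against 0 h, 1 at 24 h against 12 h, 13 at 96 h against 24 h and 9 in Pax7 cells, and all genes were 1271, 2515, 5755, 54, 2506 and 3407. edgeR's quasi-likelihood test on recovered reads called 5130 genes at 96 h against 0 h and the same number of members as limma in each ER-Pax7 comparison. One alternative, a length minimum for genes in the Neo and Pax7 table, was chosen after seeing the data. Depth limits the genes with few reads, such as Ifit1 and Cxcl10.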

Other observations

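In a list of 23 genes of nucleic acid sensing and signal relay, 9 of 21 tested were higher and 3 lower at 96 h against 0 h, by the limma fit used for the members, against 16.3% and 17.4% of all genes. Rela, a subunit of NF-kappa-B, was higher (log2 fold 0.27, adjusted p = 5.64e-05), and so was Traf3, an adaptor that links sensors to interferon induction (log2 fold 0.20, adjusted p = 0.000878). In Pax7 against Neo cells 3 of 19 tested were higher and 5 lower, against 18.5% and 18.2% of all genes, so these numbers were near the background. Ikbke, a kinase that activates Irf3 and Irf7, was the gene with the smallest adjusted p: 0.351 ± 0.0318 against 0.103 ± 0.00248 FPKM (SD, n = 2 each; log2 fold 1.15, adjusted p = 0.00391). Its Neo mean lay near 0.1 FPKM, which was both the filter minimum and the pseudocount, so the size of this fold rests on low values.

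The authors' deposited table of edgeR comparisons lists 4 of the 40 members under a false discovery rate of 0.05 for 24 h against 0 h (Irf1 higher; H2-D1, H2-K1 and Irf7 lower). It lists 7 members for 96 h against 24 h, all higher, and 11 for 96 h against 0 h, 9 higher and 2 lower. For 12 h against 0 h it lists 0 members, against 0.815% of all genes higher and 0.989% lower. The authors' comparison of Pax7 with Neo cells also lists 0 members, against 8 genes higher and 16 lower of all 24063. There the limma fit used here called 11 of 32 members and 4917 of 13393 genes. In the authors' comparison the log2 fold was exactly 0 for Dhx58, Psmb9 and Usp18, whose FPKM values did not overlap between the groups. For Irf7 it was -0.62. The reason for the difference between the authors' comparison and the limma fit was not tested. Over all 24063 genes the authors' deposited table lists 1.37% higher and 2.32% lower for 24 h against 0 h, 1.58% and 1.51% for 96 h against 24 h, and 5.35% and 6.22% for 96 h against 0 h.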
